A study of Mus musculus with 17 samples.

Results

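The genes described here are 9 genes of lipid uptake and handling in mouse skin innate lymphoid cells (ILCs): Apoe, Abca1, Lpl, Cd36, Fabp4, Fabp5, Dgat2, Pparg and Enpp2. They were chosen by name, and all 9 were found among the 54446 Ensembl genes of the bulk count files and among the genes of the 3 single-cell count files. Bulk RNA sequencing covered 14 libraries in 6 groups of live Lineage- γδTCR- CD90+ cells sorted from the skin of mice on a C57BL/6 background. Cells from fate-map (fm) reporter mice were split by the reporter into marked (fm_pos) and unmarked (fm_neg) cells, and such a mark stays on after its driving gene falls silent. The groups were fm_pos_Gata3flox (3 libraries) and fm_pos (2 libraries), then fm_neg_Gata3flox (3 libraries) and fm_neg (2 libraries). In the mice labelled Gata3flox, the series text describes a deletion of Gata3, the transcription factor on which type 2 ILCs depend, on top of the reporter, and the other reporter mice carried no such label. A separate pair of groups held Gata3fl/flCreERT2 mice (Gata3KO_tamoxifen, 2 libraries) and C57BL/6 mice (WT_tamoxifen, 2 libraries), and both genotypes had received 3 intraperitoneal injections of 5 mg tamoxifen. The labels do not name the promoter that drives CreERT2, the cells in which Gata3 was deleted in the reporter mice, or the age of the mice. Single-cell RNA sequencing gave 1 library of skin ILCs and 1 library each of dorsal skin ILCs 10 days after depilation and on day 0.

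Bulk libraries held 14450612 to 44098274 counts, and the cells kept of the single-cell libraries held 10240360 counts in 4103 skin cells, 862679 counts in 443 day 10 cells and 1171266 counts in 553 day 0 cells. All 10 ILC marker genes were detected in every bulk library, with a summed level of 10205 to 24081 CPM (counts scaled to a common library size). Gata3 itself did not pass the test in any comparison of these groups: it stood at 154, 235 and 307 CPM in fm_pos_Gata3flox and 164 and 303 CPM in fm_pos, and at 264, 430 and 442 CPM in fm_neg_Gata3flox and 381 and 504 CPM in fm_neg. The log2 differences were -0.01 ± 0.35 (SE) in marked and -0.22 ± 0.35 in unmarked cells. In the tamoxifen libraries Gata3 was at 299 and 314 CPM in Gata3KO_tamoxifen and at 381 and 581 CPM in WT_tamoxifen, a log2 difference of -0.65 ± 0.26 (SE) that did not pass the test (edgeR adjusted p = 0.742). The counts are per whole gene and do not check the loss of single exons. The libraries are therefore called by their labels throughout.

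Cells take up lipid by a chain of steps that these genes span. Lpl, lipoprotein lipase, releases fatty acids from circulating triglyceride, Cd36 takes fatty acids in at the cell surface, and Fabp4 and Fabp5 carry them inside the cell, where Dgat2 joins the last of them onto diacylglycerol to make stored triglyceride. Apoe is the apolipoprotein by which lipoproteins bind their receptors on cells, and Abca1 exports cholesterol onto such particles. Pparg is a nuclear receptor for fatty acids that switches on uptake and storage genes, and Enpp2 (autotaxin) is a secreted enzyme that makes the signalling lipid lysophosphatidic acid. Type 2 ILCs of mice are known for taking up fatty acids and for expressing Pparg, while in skin and other tissues Fabp4 is known from adipocytes, macrophages and capillary endothelium, and Fabp5 from keratinocytes.

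In mm10 coordinates as the files give them, Fabp5 lies at chr3:10012548-10016607 (+) and Fabp4 at chr3:10204088-10208576 (-), on the same chromosome. Abca1 lies at chr4:53030787-53159895 (-), Cd36 at chr5:17781690-17888801 (-), Pparg at chr6:115360951-115490399 (+), Apoe at chr7:19696109-19699188 (-), Dgat2 at chr7:99153658-99182719 (-), Lpl at chr8:68880491-68907448 (+) and Enpp2 at chr15:54838901-54952892 (-). Exons of Enpp2 overlap those of Gm26684 on the opposite strand, and since no strand setting of the counting is stated in the sources used here, reads of the pair cannot be told apart. Fabp5 has a near-identical copy, Fabp5l2, which held 58 counts in fm_neg replicate 2 and 0 counts in each of the other bulk libraries.

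Promoter windows, from 250 bases before to 50 bases after a start site, were read from the RefSeq table (GRCm38.p6), which held 8 windows for 4 of the members (Apoe, Pparg, Cd36 and Abca1). They are shown because Apoe was the member called most often, because Gata3 binds GATA letters, and because Pparg and its relatives bind the nuclear receptor site. Windows were searched on both strands for GATA letters (AGATAA or AGATAG, also TGATAA or TGATAG), for the nuclear receptor site AGGTCA, and for its direct repeats with 1 base (AGGTCANAGGTCA) or 4 bases (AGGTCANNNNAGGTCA) between, and capitals mark these matches. The windows below are Apoe window 1 at chr7:19699139-19699438 (-), Apoe window 3 at chr7:19698349-19698648 (-), Pparg window 1 at chr6:115360894-115361193 (+) and Cd36 at chr5:17835847-17836146 (-).
Apoe window 1: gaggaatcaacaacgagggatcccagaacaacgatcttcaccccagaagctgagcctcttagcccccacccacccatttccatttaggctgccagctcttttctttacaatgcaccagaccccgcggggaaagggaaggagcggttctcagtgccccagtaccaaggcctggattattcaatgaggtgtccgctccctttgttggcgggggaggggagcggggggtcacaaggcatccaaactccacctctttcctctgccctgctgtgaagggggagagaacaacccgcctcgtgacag
Apoe window 3: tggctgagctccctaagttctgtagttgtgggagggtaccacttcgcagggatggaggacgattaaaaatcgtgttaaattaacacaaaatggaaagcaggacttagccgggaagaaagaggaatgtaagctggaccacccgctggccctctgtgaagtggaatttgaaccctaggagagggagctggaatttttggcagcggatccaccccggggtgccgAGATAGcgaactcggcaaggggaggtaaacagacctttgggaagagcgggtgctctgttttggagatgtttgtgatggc
Pparg window 1: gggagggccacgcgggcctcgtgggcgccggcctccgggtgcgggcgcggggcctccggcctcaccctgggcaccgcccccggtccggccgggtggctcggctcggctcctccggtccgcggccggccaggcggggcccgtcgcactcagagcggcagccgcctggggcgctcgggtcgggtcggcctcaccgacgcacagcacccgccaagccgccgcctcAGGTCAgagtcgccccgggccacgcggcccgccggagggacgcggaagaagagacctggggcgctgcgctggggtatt
Cd36: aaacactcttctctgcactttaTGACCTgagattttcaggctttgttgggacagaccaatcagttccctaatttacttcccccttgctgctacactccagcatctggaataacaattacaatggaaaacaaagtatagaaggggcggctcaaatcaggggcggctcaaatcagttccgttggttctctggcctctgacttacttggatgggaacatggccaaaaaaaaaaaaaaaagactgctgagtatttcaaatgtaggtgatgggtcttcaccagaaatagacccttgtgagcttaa

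Apoe window 1 held none of these letters, and Apoe window 3 held AGATAG with its first base at -29 from the start site. Pparg window 1 held AGGTCA at -28, and Cd36 held its reverse complement TGACCT at -228. Of the windows not printed, Pparg window 2 held AGGTCA at -9, and Apoe window 2, Pparg window 3 and the Abca1 window held none of these letters. Apoe window 3 was thus the only window of the members with GATA letters. Of all 32851 windows in the table, 29.8% held GATA letters and 16.3% the nuclear receptor site, against 0.0396% for the repeat spaced by 1 base and 0.0152% for the repeat spaced by 4 bases, and no window of the 4 members held a repeat. These matches describe letters, not binding.

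Apoe was the member that differed most firmly between groups. Its level was 94.4, 68.6 and 102 CPM in fm_pos_Gata3flox, 35.3 and 38.0 CPM in fm_pos, 171, 149 and 172 CPM in fm_neg_Gata3flox, and 944 and 1242 CPM in fm_neg. The 4 groups did not overlap: the fm_pos libraries were the lowest, and the fm_neg libraries the highest. Between fm_pos (36.7 ± 1.94 CPM, SD, n = 2) and fm_neg (1093 ± 211 CPM, SD, n = 2), Apoe was lower in fm_pos by a log2 difference of -4.90 ± 0.26 (SE, edgeR quasi-likelihood test, adjusted p = 7.86e-05). With fm_neg replicate 2 left out, so that all 3 libraries compared carried the lane code L2, it was -4.68 ± 0.27 (adjusted p = 0.000312).

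The Gata3flox label went with opposite Apoe changes in marked and unmarked cells. Apoe was higher in fm_pos_Gata3flox than in fm_pos, by 1.27 ± 0.21 on the log2 scale (SE, edgeR adjusted p = 0.0230), and lower in fm_neg_Gata3flox than in fm_neg, by -2.74 ± 0.20 (adjusted p = 0.00186). The test of the difference between these 2 changes gave 4.01 ± 0.29 on the log2 scale (edgeR adjusted p = 0.00146). The first of the changes was not called without fm_pos_Gata3flox replicate 1 (adjusted p = 0.0656) or without fm_pos replicate 1 (adjusted p = 0.0593), nor with a replicate block (1.19, adjusted p = 0.0660) or in a fit of the 2 groups alone (1.26, adjusted p = 0.154), while the second was called under every alternative run. Between fm_pos_Gata3flox (88.4 ± 17.6 CPM, SD, n = 3) and fm_neg_Gata3flox (164 ± 13.0 CPM, SD, n = 3), the difference of -0.89 ± 0.18 did not pass the test (edgeR adjusted p = 0.0911), although the libraries did not overlap. A code in the names of the sequencing files differs between Gata3flox and intact libraries, and the labels do not say what it stands for. Genotype and any batch that this code marks cannot be told apart in these comparisons.

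Enpp2 was highest in unmarked cells of intact mice. It stood at 5.26, 4.14 and 28.2 CPM in fm_pos_Gata3flox, 24.5 and 18.8 CPM in fm_pos, 13.2, 15.2 and 15.6 CPM in fm_neg_Gata3flox, and 520 and 667 CPM in fm_neg. The fm_neg libraries lay far above all others, and the other 3 groups overlapped except fm_pos and fm_neg_Gata3flox. Enpp2 was lower in fm_pos than in fm_neg by -4.78 ± 0.84 on the log2 scale (SE, edgeR adjusted p = 0.0200), and lower in fm_neg_Gata3flox than in fm_neg by -5.34 ± 0.73 (adjusted p = 0.0172). Without either fm_pos library the first call was lost (adjusted p = 0.0551 and 0.0546), as it was with lane in the fit (-4.72, adjusted p = 0.0502), and without any one fm_neg_Gata3flox library the second was lost (adjusted p = 0.0873 to 0.100), with differences between -4.59 and -5.38 in these cases. Between fm_pos_Gata3flox and fm_neg_Gata3flox Enpp2 differed by -0.22 ± 0.60 (SE, edgeR adjusted p = 1), less than the spread between libraries. Replicate 3 of fm_pos_Gata3flox, at 28.2 CPM, stood apart: without it Enpp2 was called lower in fm_pos_Gata3flox than in fm_pos (-2.22 ± 0.23, edgeR adjusted p = 0.00981), against -0.78 ± 0.65 with it (adjusted p = 0.543).

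**Figure D1:**
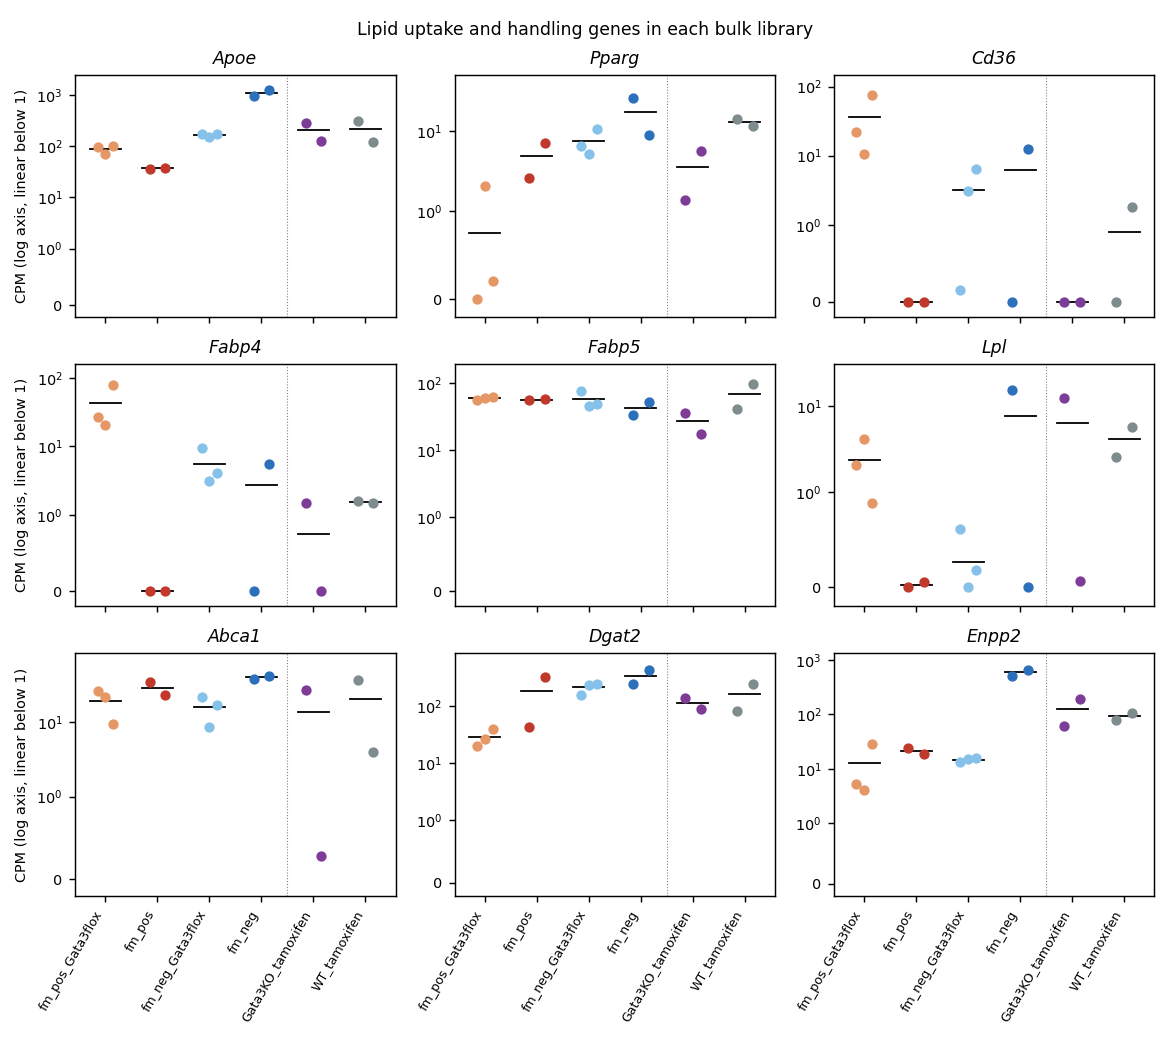
Level of each of the 9 genes in every bulk library (CPM on a log axis that is linear below 1), with 1 point per library and a line at the group mean. The dotted line separates the reporter mice from the tamoxifen mice, whose CPM were scaled apart. Apoe and Enpp2 peak in the 2 fm_neg libraries (944 and 1242 CPM, 520 and 667 CPM), and the means of Cd36 and Fabp4 are highest in fm_pos_Gata3flox.

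Markers of other skin cells moved with Apoe and Enpp2. The summed level of 10 fibroblast markers was 143 to 345 CPM in fm_pos_Gata3flox, 71.6 to 187 CPM in fm_pos, 419 to 1077 CPM in fm_neg_Gata3flox and 6152 to 8602 CPM in fm_neg. Of the list, 7 to 8 genes were detected in fm_pos_Gata3flox libraries, 4 to 7 in fm_pos, 7 to 10 in fm_neg_Gata3flox and all 10 in fm_neg. Its most abundant genes were Dcn and Sparc, matrix genes of fibroblasts, and Pdgfra, a receptor that defines fibroblasts, was at 0 in both fm_pos libraries and at 28.0 and 22.5 CPM in fm_neg. Across the 10 reporter libraries the summed fibroblast level had a Pearson correlation of 0.95 with Apoe and 0.81 with Enpp2 on the log scale, as a description of libraries that share the group differences. The summed level of 11 keratinocyte markers was 625 to 746 CPM in fm_pos_Gata3flox, 391 to 444 CPM in fm_pos, 504 to 645 CPM in fm_neg_Gata3flox and 2603 to 4770 CPM in fm_neg. Its Pearson correlation was 0.90 with Apoe and 0.87 with Enpp2. By rank, Enpp2 had a correlation of 0.43 with the fibroblast and 0.36 with the keratinocyte sum, and Apoe 0.90 and 0.76. Enpp2 was lower in fm_neg_Gata3flox than in fm_pos, while the fibroblast sum was higher. In bulk samples fewer cells of a type and less RNA per cell cannot be told apart, and the part of these cells in the Apoe and Enpp2 results was not tested.

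**Figure D2:**
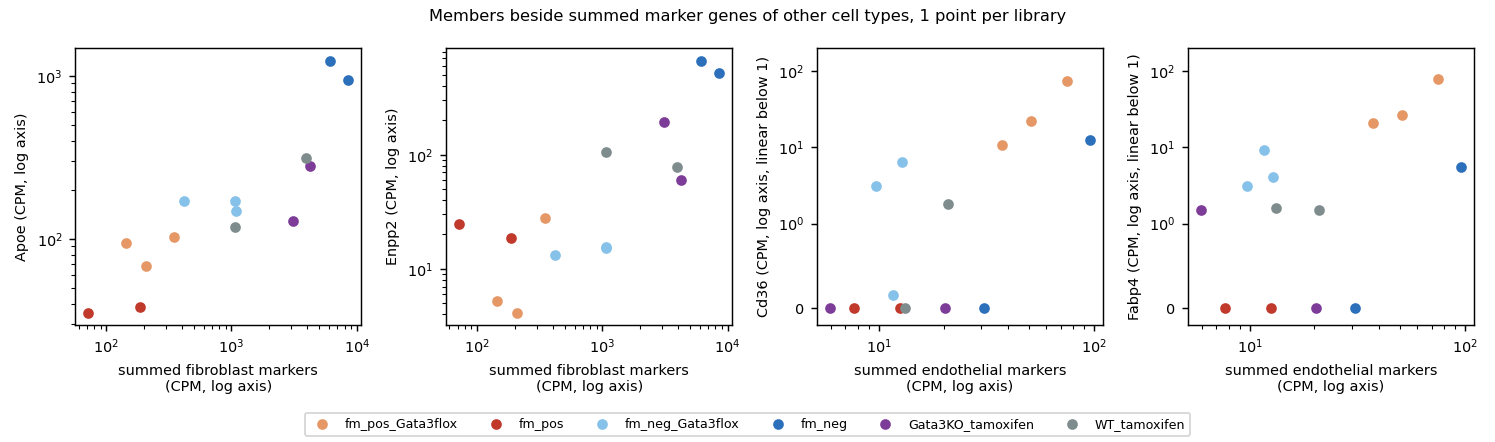
Apoe and Enpp2 against the summed fibroblast markers, and Cd36 and Fabp4 against the summed endothelial markers, in CPM on log axes (linear below 1 for Cd36 and Fabp4), 1 point per bulk library. The 2 fm_neg libraries stand at the upper right of the first 2 panels, with 6152 and 8602 CPM of fibroblast markers, and the 3 fm_pos_Gata3flox libraries hold the highest Fabp4 levels, while 1 of them lies below fm_neg replicate 2 in Cd36 (10.7 against 12.3 CPM).

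Dgat2, the enzyme of the last step of triglyceride synthesis, was lowest in marked cells of the Gata3flox mice. It was at 19.7, 26.2 and 39.3 CPM in fm_pos_Gata3flox, 44.1 and 327 CPM in fm_pos, 160, 238 and 250.9 CPM in fm_neg_Gata3flox and 250 and 432 CPM in fm_neg. All 3 fm_pos_Gata3flox libraries lay below every other reporter library, and fm_pos replicate 2 lay within the range of fm_neg. The log2 difference was -2.93 ± 0.62 (SE) between fm_pos_Gata3flox and fm_neg_Gata3flox and -2.71 ± 0.65 between fm_pos_Gata3flox and fm_pos, and neither passed the test (edgeR adjusted p = 0.108 and 0.0725). DESeq2 called both (adjusted p = 5.13e-05 and 0.000647), and the second was called by edgeR without fm_pos replicate 1 (-3.52, adjusted p = 0.00639). Between fm_pos and fm_neg the difference of -0.88 ± 0.71 did not pass (edgeR adjusted p = 0.544), and it was -2.94 without fm_pos replicate 2 (adjusted p = 0.0170) and -0.06 without fm_pos replicate 1.

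Pparg showed the same order at a lower level and with wider spread. It was at 0, 2.05 and 0.209 CPM in fm_pos_Gata3flox, 2.56 and 7.15 CPM in fm_pos, 6.43, 5.10 and 10.8 CPM in fm_neg_Gata3flox and 25.7 and 8.83 CPM in fm_neg. The fm_pos_Gata3flox libraries lay below all others, and marked and unmarked libraries did not overlap in either genotype. The differences of -3.30 ± 1.38 on the log2 scale between fm_pos_Gata3flox and fm_neg_Gata3flox (SE, edgeR adjusted p = 0.600), and of -1.83 ± 1.59 between fm_pos and fm_neg (adjusted p = 0.585), did not pass the test. Over the 10 reporter libraries Pparg and Dgat2 had a Pearson correlation of 0.830 on the log scale. The 8 mast cell and basophil markers moved with Pparg (0.77): they summed to 68.8 to 105 CPM in fm_pos_Gata3flox (4 to 5 genes detected), 60.5 to 101 CPM in fm_pos (2 to 3 genes), 129 to 298 CPM in fm_neg_Gata3flox (3 to 6 genes) and 128 to 353 CPM in fm_neg (4 to 8 genes). The highest sum was in fm_neg replicate 1, the library with the highest Pparg level. Kit, a receptor that some ILCs also carry, was the highest gene of the list in every reporter library. Cpa3, which defines mast cells, was at 43.4 and 5.12 CPM in fm_neg and at 0, 0 and 54.2 CPM in fm_neg_Gata3flox. It was at 0 to 1.75 CPM in fm_pos_Gata3flox and at 0 and 0.0246 CPM in fm_pos. Where Cpa3 was at 0 in fm_neg_Gata3flox, Pparg was at 6.43 and 5.10 CPM. The fibroblast markers also moved with Pparg (0.71), and the mast cell and basophil markers with Dgat2 (0.65) and Apoe (0.65). The part of mast cells, basophils or fibroblasts in the Pparg levels was not tested.

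Cd36 and Fabp4, the surface fatty acid receptor and an intracellular carrier, were highest in marked cells of the Gata3flox mice. Cd36 was at 22.1, 10.7 and 74.6 CPM in fm_pos_Gata3flox, 0 CPM in both fm_pos libraries, 0.152, 3.08 and 6.36 CPM in fm_neg_Gata3flox, and 0 and 12.3 CPM in fm_neg. Fabp4 was at 26.6, 20.7 and 79.6 CPM in fm_pos_Gata3flox, 0 CPM in both fm_pos libraries, 9.31, 3.12 and 4.02 CPM in fm_neg_Gata3flox, and 0 and 5.49 CPM in fm_neg. For both genes the 3 fm_pos_Gata3flox libraries lay above fm_pos and fm_neg_Gata3flox, and only Fabp4 also lay above both fm_neg libraries. Against a floor of 3 counts over the group, Cd36 was at least 1006-fold higher in fm_pos_Gata3flox than in fm_pos (4038 against 0 counts), and Fabp4 at least 1156-fold higher (4638 against 0 counts). These bounds cover counting error only, and edgeR called neither gene, with an adjusted p of 0.111 for Cd36 and 0.0587 for Fabp4, while DESeq2 called both (3.97e-06 and 3.97e-08). Cd36 was at least 114-fold lower in fm_pos than in fm_neg and Fabp4 at least 50.9-fold lower, but all of these counts came from fm_neg replicate 2.

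The endothelial marker list was among the lists that moved with Cd36 and Fabp4. Its 9 genes summed to 37.3 to 74.8 CPM in fm_pos_Gata3flox (5 to 8 genes detected), 7.65 to 12.5 CPM in fm_pos (3 to 4 genes), 9.74 to 12.9 CPM in fm_neg_Gata3flox (4 to 6 genes), and 31.0 to 96.0 CPM in fm_neg (5 genes). Pecam1, an adhesion molecule of endothelium that leukocytes also carry, made up 35.5, 25.2 and 40.2 CPM of this in fm_pos_Gata3flox, while Cdh5, which defines endothelium, was at 4.58, 1.03 and 0.612 CPM and Vwf was at or below 0.366 CPM in every bulk library. Over the 10 reporter libraries the summed endothelial level had a correlation of 0.75 with Cd36 and 0.61 with Fabp4, and Cd36 and Fabp4 had one of 0.888 with each other. The summed ILC markers had correlations of 0.60 with Cd36 and 0.64 with Fabp4. The highest endothelial sum was in fm_neg replicate 2 (96.0 CPM), where Cd36 was at 12.3 CPM and Fabp4 at 5.49 CPM. The adipocyte list was at 0 to 10.1 CPM in every bulk library, with Adipoq, its defining gene, at 0 in all libraries but fm_pos_Gata3flox replicate 3 (0.862 CPM). The macrophage list was at 19.6 to 90.3 CPM in fm_pos_Gata3flox, 23.9 to 34.9 CPM in fm_pos, 23.6 to 40.2 CPM in fm_neg_Gata3flox and 57.0 to 75.8 CPM in fm_neg. The part of endothelial cells or macrophages in the Cd36 and Fabp4 levels was not tested.

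Lpl was low and uneven. It was at 2.04, 4.10 and 0.880 CPM in fm_pos_Gata3flox, 0 and 0.0502 CPM in fm_pos, 0.607, 0 and 0.180 CPM in fm_neg_Gata3flox, and 15.5 and 0 CPM in fm_neg. A single library, fm_neg replicate 1, held the highest level, and the fm_pos_Gata3flox libraries lay above those of fm_pos and fm_neg_Gata3flox. The ratio of fm_pos_Gata3flox over fm_pos was 74.8 (95% counting interval 20.4 to 622, from 200 and 2 counts), without an edgeR call (adjusted p = 0.269).

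Fabp5 and Abca1 were not called by edgeR in any comparison. Fabp5 was at 56.8, 60.5 and 62.1 CPM in fm_pos_Gata3flox, 55.8 and 58.5 CPM in fm_pos, 76.3, 46.6 and 49.2 CPM in fm_neg_Gata3flox and 33.6 and 53.0 CPM in fm_neg, and its log2 differences in the 4 reporter comparisons ran from 0.06 to 0.41. Abca1 was at 26.3, 22.2 and 9.50 CPM in fm_pos_Gata3flox, 34.5 and 23.6 CPM in fm_pos, 22.1, 8.54 and 17.2 CPM in fm_neg_Gata3flox and 37.8 and 42.5 CPM in fm_neg. Abca1 was highest in fm_neg, where neither library overlapped another reporter group, and its difference between fm_neg_Gata3flox and fm_neg of -1.33 ± 0.50 on the log2 scale did not pass the test (SE, edgeR adjusted p = 0.210).

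**Figure D3:**
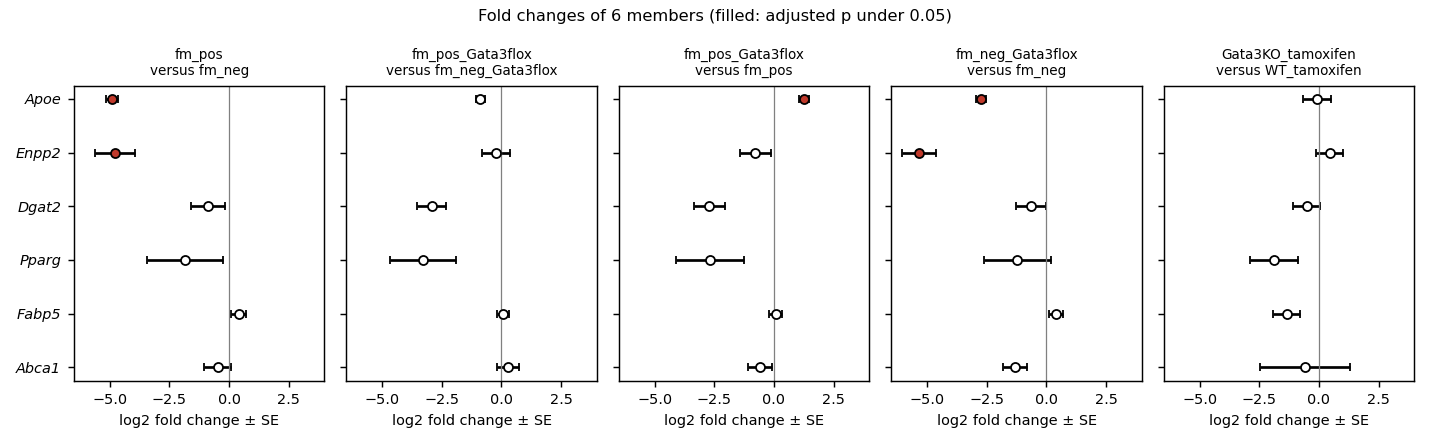
Log2 fold changes with SE (edgeR) of 6 members in 5 comparisons, filled where the adjusted p was under 0.05. Cd36, Fabp4 and Lpl are not drawn, because groups with 0 to 3 counts give no usable fold. Apoe is called in 3 of the panels (-4.90, 1.27 and -2.74) and Enpp2 in 2 (-4.78 and -5.34), and no member is called between the Gata3flox groups or the tamoxifen groups.

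Counted over all members, 0 of 9 were called higher and 2 lower in fm_pos than in fm_neg, against 0.624% of the 17456 genes tested called higher and 2.11% lower (2.74% in all), and the median log2 difference was -4.78, against 0 over all genes. This median rests on single fm_neg libraries: it was -1.22 without fm_neg replicate 1 and -0.43 without fm_neg replicate 2. The values of Cd36, Fabp4 and Lpl in it are fitted from 0 to 2 counts in fm_pos, and with all libraries the median is the same with these 3 members at their bounds. The libraries of the pair did not overlap for 5 of 9 members, against 35% of genes. Between fm_pos_Gata3flox and fm_neg_Gata3flox 0 of 9 were called by edgeR, against 0.126% of genes called higher and 0.235% lower (0.361% in all), with 3 at an unadjusted p under 0.05 and 2 called by DESeq2. Their median difference was 0.06 against 0 over all genes, and 6 of 9 did not overlap, against 18.2%. In fm_pos_Gata3flox against fm_pos 1 of 9 was called higher and 0 lower, against 1.11% of genes higher and 0.418% lower (1.52% in all), 6 of 9 did not overlap, against 33%, and the median was 0.06, against 0.18 over all genes, a shift of the scaling to which these changes are relative. In fm_neg_Gata3flox against fm_neg 0 of 9 were called higher and 2 lower, against 0.596% of genes higher and 0.739% lower (1.33% in all), 3 of 9 did not overlap, against 39.5%, and the median was -1.22, against 0.07. The interaction called 1 of 9, a higher one, against 0.825% of genes higher and 0.183% lower (1.01% in all). These comparisons share libraries, so their results are not independent of each other. Nothing in the labels says that libraries of a group came from separate animals, so p-values measure the spread between these libraries, which may be technical.

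In the induced deletion no member passed the test. Apoe was at 281 and 128 CPM in Gata3KO_tamoxifen and 314 and 118 CPM in WT_tamoxifen, and Enpp2 at 60.2 and 193 CPM in Gata3KO_tamoxifen and 78.4 and 106 CPM in WT_tamoxifen. Dgat2 was at 143 and 89.6 CPM in Gata3KO_tamoxifen and 81.7 and 249.4 CPM in WT_tamoxifen. For these 3 genes the libraries of the groups overlapped. Fabp5, at 36.2 and 17.7 CPM in Gata3KO_tamoxifen and 40.7 and 97.6 CPM in WT_tamoxifen, had a log2 difference of -1.36 ± 0.58 (SE, edgeR adjusted p = 0.781). Pparg, at 1.37 and 5.64 CPM in Gata3KO_tamoxifen and 14.2 and 11.6 CPM in WT_tamoxifen, had one of -1.88 ± 0.99 (adjusted p = 0.908). Both lay below WT_tamoxifen in every Gata3KO_tamoxifen library, as did Fabp4 at 1.49 and 0 CPM against 1.61 and 1.5 CPM, which makes 3 of 8 members without overlap, against 36.1% of the 13272 genes tested. edgeR called 0 of the 8 members tested and 0% of all genes in this comparison, with 915 genes and 0 members at an unadjusted p under 0.05, and DESeq2 called 230 genes and 0 members. Cd36 was too low to be tested, with 0 counts in Gata3KO_tamoxifen and 29 counts in WT_tamoxifen. Lpl was at 12.4 and 0.0687 CPM in Gata3KO_tamoxifen and 2.51 and 5.63 CPM in WT_tamoxifen, and Abca1 at 26.96 and 0.275 CPM in Gata3KO_tamoxifen and 36.9 and 4.0 CPM in WT_tamoxifen.

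Set side by side over all 6 groups, levels are given per length as TPM (length-corrected counts scaled to the same total), since the CPM of reporter and tamoxifen libraries were scaled apart. The code in the file names also differs between reporter and tamoxifen libraries. Mice, tamoxifen, the split by reporter and any such batch cannot be told apart between these sets. Apoe was highest in fm_neg (mean 1349 TPM), followed by WT_tamoxifen (243 TPM), Gata3KO_tamoxifen (221 TPM) and fm_neg_Gata3flox (180 TPM), whose libraries overlapped in that order, then fm_pos_Gata3flox (97.5 TPM) and fm_pos (44.3 TPM). Enpp2 ran from fm_neg (271 TPM) through Gata3KO_tamoxifen (51.5 TPM) and WT_tamoxifen (37.4 TPM), which overlapped, to fm_pos (9.73 TPM), and then to fm_neg_Gata3flox (5.96 TPM) and fm_pos_Gata3flox (5.24 TPM), which overlapped. Dgat2 ran from fm_neg (291 TPM) through fm_neg_Gata3flox (165 TPM), fm_pos (153 TPM), WT_tamoxifen (124 TPM) and Gata3KO_tamoxifen (87.4 TPM), each overlapping the next, to fm_pos_Gata3flox (21.8 TPM), which stood apart. For Apoe and Enpp2 fm_neg stood above every other group without overlap. For Dgat2 it stood above fm_neg_Gata3flox, the next group by mean, but overlapped fm_pos. Per length, Apoe was thus the most abundant member in fm_neg. In fm_pos Dgat2 was at 37.9 and 268 TPM and Apoe at 43.7 and 44.96 TPM, so which of them was higher differed between the libraries. The fibroblast markers of the tamoxifen libraries summed to 3094 to 4222 CPM in Gata3KO_tamoxifen and 1059 to 3932 CPM in WT_tamoxifen.

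Genes of the same pathways were counted next. Of 95 genes in 6 lists (lipid uptake and storage, cholesterol efflux, cholesterol synthesis, fatty acid synthesis, fatty acid oxidation, and receptors and phosphatases of lysophosphatidic acid), 88 were tested in the reporter libraries, and 0 were called higher and 4 lower in fm_pos than in fm_neg, against 0.624% of all genes higher and 2.11% lower. Plpp3, a phosphatase that breaks down lysophosphatidic acid, held 0.0649 and 3.46 CPM in fm_pos and 235 and 116 CPM in fm_neg, a log2 difference of -6.62 ± 1.21 (SE, edgeR adjusted p = 0.0233). Its relative Plpp1 held 0 and 2 counts in fm_pos and 831 and 757 counts in fm_neg (adjusted p = 0.00240). Both phosphatases were thus lower in the same group as Enpp2, whose product they remove. Lipe, hormone-sensitive lipase, held 0 and 1 counts in fm_pos and 268 and 76 counts in fm_neg (adjusted p = 0.0250), and Pltp, a phospholipid transfer protein, 0 and 2 counts in fm_pos and 369 and 510 counts in fm_neg (adjusted p = 0.0186). In the same comparison 5 of 10 fibroblast and 6 of 11 keratinocyte markers were called lower. Fibroblast markers summed to 71.6 to 187 CPM in fm_pos and 6152 to 8602 CPM in fm_neg. The part of other cells in these 4 pathway genes was not tested. None of 18 cholesterol synthesis genes, 11 fatty acid synthesis genes or 14 oxidation genes was called, and the medians of these lists were -0.43, -0.10 and -0.23 on the log2 scale. The nearest among them were Cyp51 (-1.09 ± 0.27, SE, adjusted p = 0.0714) and Sqle (-1.96 ± 0.68, adjusted p = 0.161) of sterol synthesis, Acly (0.94 ± 0.31, adjusted p = 0.151), which makes acetyl-CoA, and, of fatty acid oxidation, Hadhb (0.61 ± 0.21, adjusted p = 0.161) and Slc25a20 (-1.13 ± 0.44, adjusted p = 0.204). The desaturase Fads2 held 0 counts in both fm_pos libraries and 129 and 48 counts in fm_neg (adjusted p = 0.215).

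With the Gata3flox label, 0 of 88 pathway genes were called between fm_pos_Gata3flox and fm_neg_Gata3flox, against 0.361% of all genes, with 2 called by DESeq2. Plin3, which coats lipid droplets, came nearest, at 57.6, 60.5 and 75.1 CPM in fm_pos_Gata3flox and 23.6, 29.2 and 30.05 CPM in fm_neg_Gata3flox (log2 difference 1.22 ± 0.22, SE, edgeR adjusted p = 0.0627). Dgat1, the other triglyceride-forming enzyme, differed by 1.38 ± 0.43 (adjusted p = 0.375), against -2.93 ± 0.62 for Dgat2, without a call for either. Mvd of sterol synthesis, at 46.6, 49.3 and 50.6 CPM in fm_pos_Gata3flox and 21.3, 20.3 and 28.6 CPM in fm_neg_Gata3flox, differed by 1.06 ± 0.27 (adjusted p = 0.209). Cyp51 (-0.53 ± 0.22), Fasn (0.98 ± 0.44), Elovl5 (-0.43 ± 0.20), Acadl (0.44 ± 0.20), Ppard (1.44 ± 0.89), Plpp3 (-1.19 ± 0.79), Lpar1, Nr1h3 and Lcat had the smallest p of their lists and an adjusted p of 0.604 or more. In fm_pos_Gata3flox against fm_pos, where 1.52% of all genes were called, 1 gene was called higher, Plpp1 (6.36, 9.79 and 13.3 CPM against 0 and 0.0502 CPM, adjusted p = 0.00865), and 1 lower, Acly (-1.90 ± 0.28, adjusted p = 0.0147). In fm_neg_Gata3flox against fm_neg, where 1.33% of all genes were called, Plin3 (-1.33 ± 0.24, adjusted p = 0.0412) and Srebf2 (-1.56 ± 0.31, adjusted p = 0.0472), the regulator of sterol synthesis, were called lower. The interaction called Pltp (adjusted p = 0.0399) and Plpp1 (adjusted p = 0.00606), against 1.01% of all genes.

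Between Gata3KO_tamoxifen and WT_tamoxifen 0 of 82 pathway genes were called by edgeR and 2 by DESeq2. Over all genes, edgeR called 0 of the 13272 tested and DESeq2 called 230. Npc1, which moves cholesterol out of lysosomes, was at 3.90 and 6.46 CPM in Gata3KO_tamoxifen and 31.1 and 24.1 CPM in WT_tamoxifen (log2 difference -2.42 ± 0.57, SE, edgeR adjusted p = 0.585). Sqle (-1.67 ± 0.48), Nsdhl (-2.15 ± 0.94), Elovl6 (-2.78 ± 0.90), Elovl1 (0.56 ± 0.25), Acsl3 (1.23 ± 0.65), Hadhb (0.54 ± 0.21), Cpt2 (1.07 ± 0.74), Lpar6 (0.34 ± 0.21), Plpp2 (-1.67 ± 1.69) and Pltp (2 and 0 counts in Gata3KO_tamoxifen, 104 and 19 counts in WT_tamoxifen) had the smallest p of their lists and an adjusted p of 0.585 or more.

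The genes whose log CPM ran most like a member's were searched among 9450 genes with a mean of at least 5 CPM over the 10 reporter libraries. Apoe was most like Ifitm3 (Pearson r = 0.985), Sorbs3 (0.979) and Lamb2 (0.975), and Enpp2 most like Klhl5 (0.974), Ndrg1 (0.966) and Gsn (0.9504). Dgat2 was most like Il13 (0.965), a cytokine of type 2 ILCs, Calca (0.962), the gene of a neuropeptide, and Igsf5 (0.957). Fabp4 was most like Ftl2-ps (0.969), Rem2 and Trbc1, Cd36 most like Cxcl10 (0.890), Zfp445 and Armt1, and Pparg most like Tex101 (0.958), Olfr1258 and Dgcr6. Abca1 was most like Mtmr11 (0.964), Clptm1l and Frrs1, and Fabp5 most like Gpn2 (0.925), Hist1h2bg and Ebp. These are descriptions over 10 libraries in 4 groups, and the highest of so many coefficients are high by selection.

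In the single skin cells Dgat2 was the most abundant member. It held 2053 counts, 200 CPM of the summed counts (95% Poisson interval 192 to 209), and was found in 908 of 4103 cells. Fabp5 followed with 390 counts, then Abca1 with 206, Apoe with 146 and Pparg with 105, while Enpp2 (48), Lpl (29), Cd36 (24) and Fabp4 (5) were rare. There was 1 library per condition, so no difference between conditions was tested, and intervals cover counting error only. Clusters were built without the members and are called by number and leading genes, since none had ILC markers among its 10 leading genes, and the skin library shared 4 cell barcodes with the day 0 library.

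Dgat2 was spread unevenly over the skin clusters. Cluster 2 (1065 cells, led by Adgrf5 and with Il1rl1, Klrg1 and Il5, genes known from type 2 ILCs) held 353 CPM of Dgat2 (interval 333 to 374), with a count in 40.3% of its cells, or in 23.6% after thinning every cell to 1000 counts. Cluster 4 (1141 cells, led by Tff1) held 204 CPM (188 to 221), cluster 6 (42 cells, led by Mrc1) 269 CPM (183 to 382), cluster 3 (1575 cells, led by Krt14) 77.1 CPM (67.6 to 87.5) and cluster 5 (254 cells, led by Trgc2) 49.5 CPM (34.5 to 68.9). Cluster 2 thus stood above clusters 3, 4 and 5 beyond counting error, and held 55.4% of all Dgat2 counts. In the 14 cells of cluster 1, at a median of 2951 counts per cell against 2945 in cluster 2, Dgat2 was not counted, which allows up to 73.7 CPM. Pparg was rarer, with 54.3% of its 105 counts in cluster 2, at 17.7 CPM (13.4 to 22.9), against 9.35 CPM in cluster 3 and 2.34 CPM in cluster 4. In cluster 5, with 254 cells and a median of 2522 counts per cell, no Pparg was counted, which allows up to 5.22 CPM. Cluster 0 (12 cells, led by Chil3) held 9 Pparg counts, 178 CPM (81.2 to 337).

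Apoe, Lpl and Fabp4 were instead concentrated in small clusters rich in macrophage genes. Cluster 6, which carries Mrc1, C1qc and C1qa among its leading genes, held 55.5% of the Apoe counts in its 42 cells, at 703 CPM (558 to 874), and cluster 0 held another 16.4%, at 474 CPM (303 to 705). In clusters 2 to 5, the bulk of the cells, Apoe was at 1.41 to 5.48 CPM. The 11 macrophage markers summed to 3898 CPM in cluster 6 and 10438 CPM in cluster 0, against 17.0 to 26.1 CPM in clusters 2 to 5. The 10 ILC markers summed to 14402 CPM in cluster 6 and 5683 CPM in cluster 0, against 11797 to 18302 CPM in clusters 2 to 5. Cluster 6 thus held both marker sets, and the part of doublets (2 cells under 1 barcode) in it was not tested. Of the 61 cells with an Apoe count, 34 (55.7%) had counts of at least 2 macrophage markers, against 20 of the 4042 cells without one (0.495%), at median depths of 2783 and 2356 counts per cell. Lpl had 21 of its 29 counts in cluster 6 (182 CPM, 113 to 279), and all 5 Fabp4 counts lay in 3 cells of cluster 0. Cd36 was split over cluster 0 (7 counts), cluster 1 (6 counts in 5 of its 14 cells, led by Iglc1 and carrying Cd79a, a gene of B cells) and cluster 2 (8 counts). Fabp5 ran from 27 CPM in cluster 2 to 104 CPM in cluster 6 among clusters 2 to 6, with 1 count each in clusters 0 and 1, and Enpp2 had 27 of its 48 counts in cluster 4.

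**Figure D4:**
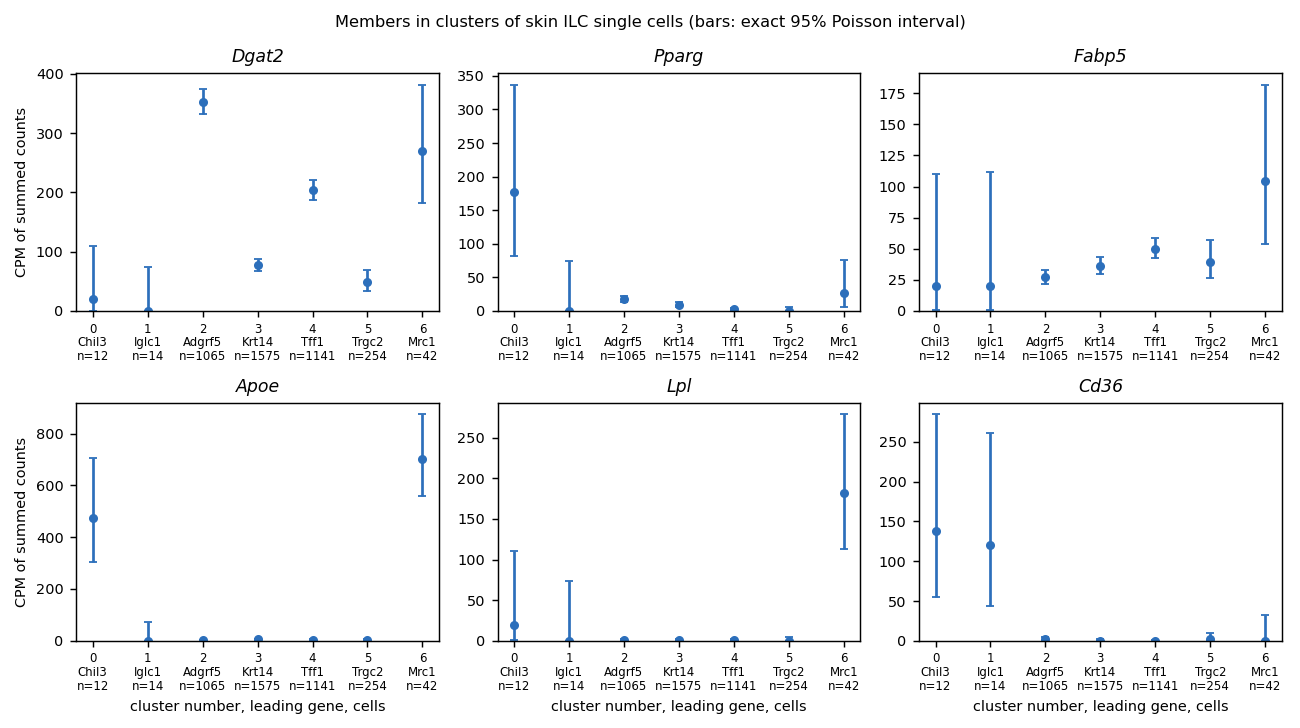
Level of 6 members in the 7 clusters of skin cells (CPM of counts summed over the cluster's cells, linear axes, bars for the exact 95% Poisson interval), each cluster marked by its number, its first leading gene and its cells. Dgat2 is highest in cluster 2 (353 CPM) among the large clusters, while Apoe and Lpl are near 0 outside the small clusters 0 and 6.

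In dorsal skin the libraries 10 days after depilation and on day 0 differed in the members in opposite directions. Dgat2 was at 236 CPM on day 10 (204 counts) and 125 CPM on day 0 (146 counts), a ratio of 1.90 (95% counting interval 1.53 to 2.36), with a count in 24.8% of day 10 cells and 14.6% of day 0 cells, or in 17.2% and 9.25% after thinning to 1000 counts. The ratio was above 1 in each of the 3 dorsal clusters, at 1.65 (1.15 to 2.34) in cluster 0, 1.88 (1.34 to 2.68) in cluster 1 and 4.10 (1.64 to 12.2) in cluster 2. These clusters were led by Asic3 and Tff1, by Fn1 and Penk, and by Id3 and Egr3, and the first held 119 day 10 and 309 day 0 cells, the second 217 and 136 and the third 107 and 108.

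Enpp2 and Lpl were lower on day 10. Enpp2 was at 19.7 CPM on day 10 (17 counts) and 73.4 CPM on day 0 (86 counts), a ratio of 0.268 (0.149 to 0.455), which was 0.106, 0.298 and 0.614 in dorsal clusters 0, 1 and 2, the last with an interval that reached 2.13. Lpl held 4 counts on day 10 and 33 on day 0, a ratio of 0.165 (0.0424 to 0.463), and in cluster 1 it held 0 counts in 217 day 10 cells and 11 counts in 136 day 0 cells. Both genes thus went the other way from Dgat2.

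The other members differed less between the days. Fabp5 was at 54.5 CPM on day 10 and 79.4 CPM on day 0, a ratio of 0.686 (0.473 to 0.985) whose interval reached 1.03 with predicted doublets kept. Apoe was at 89.3 CPM on day 10 and 77.7 CPM on day 0 (ratio 1.15, 0.837 to 1.57), with ratios of 0.752, 1.22 and 2.42 (1.24 to 5.02) in dorsal clusters 0, 1 and 2. Unlike in the skin library, Apoe was spread over all 3 dorsal clusters, at 84.98, 60.6 and 122 CPM, beside summed macrophage markers of 289, 275 and 391 CPM, whose part was not tested. Abca1 had a ratio of 0.879 (0.372 to 1.99). Pparg held 1 count on day 10 and 6 on day 0, Cd36 2 and 2, and Fabp4 1 and 0, too few to compare. The 9 members summed to 422 CPM on day 10 and 405 CPM on day 0 (ratio 1.04, 0.907 to 1.20), so their total hid the opposite directions. With 1 library per day, day and library cannot be told apart.

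**Figure D5:**
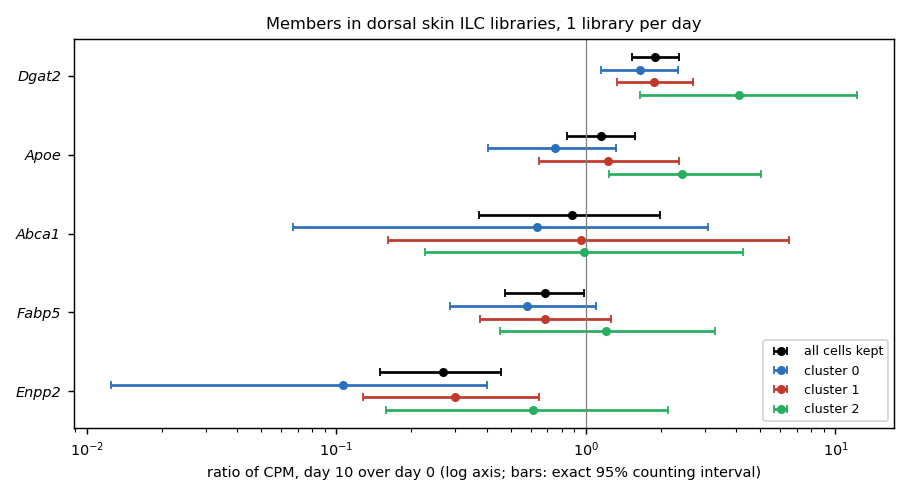
Ratio of CPM on day 10 over day 0 after depilation (log axis) for 5 members in all dorsal cells kept and in each dorsal cluster alone, with bars for the exact 95% counting interval and 1 library per day. Dgat2 lies above 1 in every row (1.65 to 4.10 by cluster), and Enpp2 lies below 1 in every row, with an interval that crosses 1 in cluster 2.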

How the data were processed

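Gene counts of 14 bulk libraries and 3 single-cell libraries were used as deposited. Per the submitters' processing notes, HISAT2 2.1.0, featureCounts (Subread) and mm10 were used, and the single-cell platform and the strand setting of the counting are not given in the sources used here. The 9 members, the marker lists and the pathway lists were chosen with earlier results of these data known. Text names all members and Gata3, the called pathway genes (at most 5 by p) or otherwise the 2 with the smallest p of each list, the leading markers, and the 3 genes most alike each member. Libraries were grouped by their labels. Some items that this rule would name are not reported here.

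The deposited bulk counts were filtered with filterByExpr, scaled by TMM and tested with edgeR 4.0.16 (quasi-likelihood test, Benjamini-Hochberg adjustment over all genes tested, threshold 0.05) in R 4.3.3, with 1 fit over the 10 reporter libraries and 1 over the 4 tamoxifen libraries. Scripts were tested on simulated data. The lane codes of the files were mixed within groups except fm_pos and fm_pos_Gata3flox (all L2) and WT_tamoxifen (all L1). Gata3KO_tamoxifen held L4 and L1, so lane was not balanced in the tamoxifen comparison. Alternatives were DESeq2 1.42.0, another scaling, no filter, lane as a covariate, a replicate block, the groups alone and leaving out each library. TPM used the gene lengths of the count files.

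Cells with at least 200 genes and at most 10% mitochondrial counts were kept (the dorsal files list no mitochondrial genes), and predicted doublets were removed with scanpy 1.11.5: 3 of 4106 skin cells, so few that the caller cannot be taken to have worked there, 11 of 454 day 10 cells and 11 of 564 day 0 cells. Clusters came from 2000 variable genes without the members, 30 components, 15 neighbours and Leiden resolution 0.5. Intervals are exact 95% Poisson or binomial intervals for counting error only.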

Additional observations from a re-analysis of the deposited data

Results flagged for a closer look

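The Apoe difference between libraries with and without the Gata3flox label was not the same in marked and unmarked cells. Apoe was higher in fm_pos_Gata3flox (88.4 ± 17.6 CPM, SD, n = 3) than in fm_pos (36.7 ± 1.94 CPM, n = 2), and lower in fm_neg_Gata3flox (164 ± 13.0 CPM, n = 3) than in fm_neg (1093 ± 211 CPM, n = 2). The test of the difference between the changes gave 4.01 ± 0.29 on the log2 scale (SE, edgeR adjusted p = 0.00146) and passed in all 15 settings run, with a highest adjusted p of 0.0184. The change in marked cells alone was called in 7 of 11 settings, and that in unmarked cells in 11 of 11. Genotype and any batch marked by the code in the file names cannot be told apart here. The summed fibroblast markers were 143 to 345 CPM in fm_pos_Gata3flox, 71.6 to 187 CPM in fm_pos, 419 to 1077 CPM in fm_neg_Gata3flox and 6152 to 8602 CPM in fm_neg, and their part in the result was not tested.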

How the results depend on the processing

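Members called between fm_pos and fm_neg numbered 2, against 5 by DESeq2, 4 when low genes were kept, 1 when the fit held the lane, and 1 to 3 when a library was left out. With fm_neg_Gata3flox as the negative side, chosen after seeing the data, 1 was called, and Enpp2 turned to 0.56 (edgeR adjusted p = 0.671). Between fm_pos_Gata3flox and fm_neg_Gata3flox, 0 became 2 with DESeq2, 3 with no filter and 1 with the groups alone, and stayed 0 with any library left out. In fm_pos_Gata3flox against fm_pos, 1 became 5 with DESeq2, 4 with no filter, 0 with the groups alone and 0 to 2 with a library left out. In fm_neg_Gata3flox against fm_neg, 2 became 1 to 2 with a library left out. The interaction, 1, became 5 with DESeq2, 6 with no filter and 1 to 3 with a library left out. Same-numbered libraries had correlations of -0.0255 to 0.0975. Where a group holds 2 libraries, such values are equal and opposite by construction, so they cannot decide whether the numbers pair libraries. Between fm_pos_Gata3flox and fm_neg_Gata3flox, same-numbered libraries had 0.0975, 0.0169 and 0.0400, and the others -0.0629 to 0.0235, which leaves pairing unsettled. The replicate block gave 0 members called in fm_pos_Gata3flox against fm_pos. Pathway genes, whose alternatives were chosen after seeing the data, numbered 4 between fm_pos and fm_neg, against 9 with DESeq2, 10 with no filter, 1 with the replicate block, 0 with the groups alone and 3 to 10 with a library left out. Between the Gata3flox groups 0 became 2 with DESeq2, 3 with no filter, 1 with the block and 2 with the groups alone, and with DESeq2 2 were called in the tamoxifen groups. Shares of all genes called under these alternatives were not set beside these counts. Whether a shift is particular to the members or pathway genes thus cannot be told. The summed members' log2 ratio of day 10 over day 0, 0.06, was -0.26 in dorsal cluster 0 alone and 0.89 in cluster 2 alone. The cause of these shifts was not tested. ILC-like clusters alone gave no value, since no cluster had an ILC marker among its leading genes. With 2 or 3 libraries a group, members at low counts are not resolved.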
